A study of Mus musculus with 4 samples.

Results

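A set of 10 imprinted genes was followed across proliferating murine erythroleukemia (MEL) cells and erythroid progenitors that had been made from embryonic stem cells (ES-EP): Peg10, Sgce, Peg3, H19, Dlk1, Mest, Impact, Plagl1, Ndn and Snrpn. They were selected by name, and the MEL to ES-EP differences of some of them were already known when they were proposed, so their values in this contrast are given as a description with no test. Of the 10 symbols, 8 were matched to a probe set that carried a single gene symbol, among 19938 genes matched in that way. H19 was not matched and has no value. Snrpn was found only on a probe set that it shares with Snurf, which falls outside the rule, and that probe set is described separately. Each of the 8 matched genes had 1 probe set.

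Imprinted genes are expressed from a single parental copy. For most of them this is because DNA methylation laid down in the egg or the sperm marks a single allele and survives the demethylation that follows fertilization. Many of them lie in clusters, each governed by a differentially methylated control region, and many set the growth of the embryo and the placenta. In mouse H19 is expressed from the maternal copy and the other genes of the set from the paternal copy. Peg10 descends from a retrotransposon and is required for the placenta, and it lies head to head with Sgce, which encodes ε-sarcoglycan of the dystrophin-associated membrane complex. The arrays measured the sum of both alleles, so they carry no information on which copy was transcribed.

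The series held 2 MEL and 2 ES-EP cultures, lettered A and B, each hybridized to a mouse Gene 1.0 ST array, and all were proliferating. MEL cells are leukemic erythroblasts, here clone DS19 with a stable transgene for a fusion of GATA-1 and the estrogen receptor (ER), grown in DMEM with serum, glutamine and puromycin. ES-EP were grown in StemPro34 with erythropoietin, IGF-1, dexamethasone, stem cell factor and β-mercaptoethanol. Cell type, the GATA-1-ER transgene and medium changed together and cannot be told apart. Each cell type was 1 line, so the spread between its arrays is that between cultures of that line, and an exact permutation test of 2 against 2 arrays cannot give a two-sided p below 0.333. Because these are bulk arrays, fewer cells of a type and less RNA per cell cannot be told apart.

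Values are log2 signals after robust multi-array averaging (RMA), and differences are MEL minus ES-EP. As a mark of background, the 95th percentile of 1027 olfactory receptor genes, which serve nasal sensory neurons, was taken in each cell type. This olfactory level was 5.19 in MEL and 5.56 in ES-EP. Over all 19938 genes the median difference was -0.15, and it lay between -0.03 and -0.00 after the arrays were rescaled in 3 ways, so small negative differences should be read against that shift. Erythroid markers lay above the olfactory level in both cell types for 8 of 8 measured genes, whereas 1 of 7 embryonic stem cell markers did so in MEL and 1 of 7 in ES-EP.

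Promoter sequences are shown first for genes on which the account below turns, each a window of 300 bases around an annotated start, as given by RefSeq for build GRCm38.p6. Of the 10 genes, 6 had an entry, and Peg10, Sgce, Impact and H19 are only named. Capitals mark TGCCGC on either strand (GCGGCA when it lies on the other strand), the hexamer that the imprint-protecting zinc finger protein ZFP57 binds when it is methylated, which was the only motif searched. It was present in 11.6% of all 32851 promoters of this length. The promoters of Peg3, Mest and Plagl1 are shown as those of genes near background in both cell types whose promoters are known to carry the imprint, Ndn being governed from the distant Snrpn control region, and those of Grb10 and Mcts2 because these genes had the largest differences among the other imprinted genes.
Peg3, chr7:6730370-6730669, minus strand: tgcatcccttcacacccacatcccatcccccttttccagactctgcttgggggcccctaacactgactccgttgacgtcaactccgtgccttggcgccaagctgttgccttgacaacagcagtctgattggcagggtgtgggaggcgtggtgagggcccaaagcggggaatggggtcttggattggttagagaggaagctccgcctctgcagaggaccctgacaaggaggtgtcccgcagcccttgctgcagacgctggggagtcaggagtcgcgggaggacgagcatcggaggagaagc
Mest, chr6:30737800-30738099, plus strand: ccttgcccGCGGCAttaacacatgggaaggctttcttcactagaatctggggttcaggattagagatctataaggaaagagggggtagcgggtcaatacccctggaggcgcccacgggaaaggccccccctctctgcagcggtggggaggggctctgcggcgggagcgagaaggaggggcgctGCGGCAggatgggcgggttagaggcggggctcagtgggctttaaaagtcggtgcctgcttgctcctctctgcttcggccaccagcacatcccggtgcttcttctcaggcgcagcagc
Plagl1, chr10:13090582-13090881, plus strand: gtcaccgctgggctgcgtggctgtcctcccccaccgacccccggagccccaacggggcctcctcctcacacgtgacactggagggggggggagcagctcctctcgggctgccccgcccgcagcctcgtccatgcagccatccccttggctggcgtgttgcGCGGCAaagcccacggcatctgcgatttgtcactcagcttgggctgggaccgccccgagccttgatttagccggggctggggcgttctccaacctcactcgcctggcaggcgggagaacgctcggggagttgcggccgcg
Grb10, chr11:12037371-12037670, minus strand: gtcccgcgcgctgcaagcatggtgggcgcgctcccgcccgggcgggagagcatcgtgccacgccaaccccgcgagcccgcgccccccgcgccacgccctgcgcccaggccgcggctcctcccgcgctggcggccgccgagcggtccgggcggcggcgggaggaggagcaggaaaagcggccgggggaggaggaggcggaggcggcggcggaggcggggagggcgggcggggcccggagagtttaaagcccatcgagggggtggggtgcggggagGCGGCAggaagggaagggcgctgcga
Mcts2, chr2:152686898-152687197, plus strand: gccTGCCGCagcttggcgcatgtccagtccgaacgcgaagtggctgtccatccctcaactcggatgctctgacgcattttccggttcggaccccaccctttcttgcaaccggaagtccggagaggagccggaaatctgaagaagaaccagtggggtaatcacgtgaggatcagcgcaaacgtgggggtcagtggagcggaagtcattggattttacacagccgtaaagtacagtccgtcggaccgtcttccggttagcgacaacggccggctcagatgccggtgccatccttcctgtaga
The Mest window held 2 copies of the hexamer, those of Plagl1, Grb10 and Mcts2 held 1 each, and the Peg3 window held 0. CpG dinucleotides numbered 13 in the Peg3 window, 17 in Mest, 26 in Plagl1, 45 in Grb10 and 25 in Mcts2, against a median of 7 over all promoters. Of all promoters 1.93% held at least as many CpGs as the Grb10 window shown. The same share was 37.9% for the Peg3 window, 31.4% for Mest, 16.9% for Plagl1 and 18.4% for Mcts2. Grb10 and Mest had more than 1 annotated start, and a window with the most CpGs is shown for each. The other Grb10 window held 9 CpGs and that of the upstream Mest start 8, both with 0 copies of the hexamer. The Peg3 window overlapped that of Usp29, its paternally expressed neighbor on the opposite strand, by 263 bases. A match or its absence describes these letters only.

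Peg10 and Sgce, the paternally expressed pair on chromosome 6, were low in MEL and high in ES-EP. Peg10 had log2 signals of 5.07 and 5.07 in the MEL arrays, against 10.41 and 10.50 in the ES-EP arrays. Both MEL values lay under the olfactory level and both ES-EP values far above it, with no overlap between the groups. Peg10 averaged 5.07 ± 0.00 in MEL and 10.45 ± 0.06 in ES-EP (SD, n = 2 each), a difference of -5.38, or a signal 41.7-fold lower in MEL. Sorted from the most negative difference, Peg10 was at rank 16 of 19938 genes. Sgce had log2 signals of 4.72 and 4.72 in MEL, against 7.98 and 8.14 in ES-EP. Its groups did not overlap either, and again the MEL arrays were under the olfactory level and the ES-EP arrays above it. The difference in Sgce was -3.34, or 10.1-fold lower in MEL, at rank 89. Since the MEL signals of both genes were at background, the size of these folds rests on background.

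Impact, which restrains activation of the amino acid sensor GCN2 by competing for its partner GCN1, went the other way. Its log2 signals were 9.98 and 9.98 in MEL, against 8.85 and 8.89 in ES-EP. All 4 values lay above the olfactory level, and both MEL arrays were higher. The difference of 1.11 corresponded to a 2.16-fold higher signal in MEL, at rank 975 when genes were sorted from the most positive difference.

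Dlk1, a transmembrane protein of the Notch ligand family that marks many fetal progenitors, was above the olfactory level in all arrays and did not separate them. Its log2 signals were 6.57 and 6.43 in MEL, against 6.75 and 6.57 in ES-EP, a difference of -0.16. The higher MEL array and the lower ES-EP array met at 6.57, and Dlk1 was the only one of the 8 genes whose groups overlapped.

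Peg3, Mest, Plagl1 and Ndn lay under the olfactory level in both cell types, and at that level no direction is given for a single gene. Peg3, a Krüppel-type zinc finger protein, had log2 signals of 4.82 and 4.76 in MEL, against 4.90 and 4.91 in ES-EP, a difference of -0.12. Mest, a hydrolase-like protein of embryonic mesoderm, had 4.73 and 4.68 in MEL, against 4.56 and 4.66 in ES-EP, a difference of 0.09. All 8 of these readings were within the range of background. Plagl1, a zinc finger regulator of cell cycle arrest, had 4.36 and 4.32 in MEL, against 4.56 and 4.44 in ES-EP, a difference of -0.17. Ndn, the neuronal growth suppressor necdin, had 3.98 and 3.80 in MEL, against 4.12 and 4.37 in ES-EP, a difference of -0.35. The middle 95% of olfactory receptor genes had differences from -0.79 to 0.28, so all 4 genes fell inside the range of genes taken as silent. After quantile normalization the difference of Peg3 became 0.12 and that of Plagl1 0.06. The shared Snurf and Snrpn probe set, for the bicistronic transcript of the SNRPN upstream reading frame and the spliceosomal protein SmN, was at 4.15 and 4.18 in MEL, against 4.46 and 4.33 in ES-EP.

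**Figure D1:**
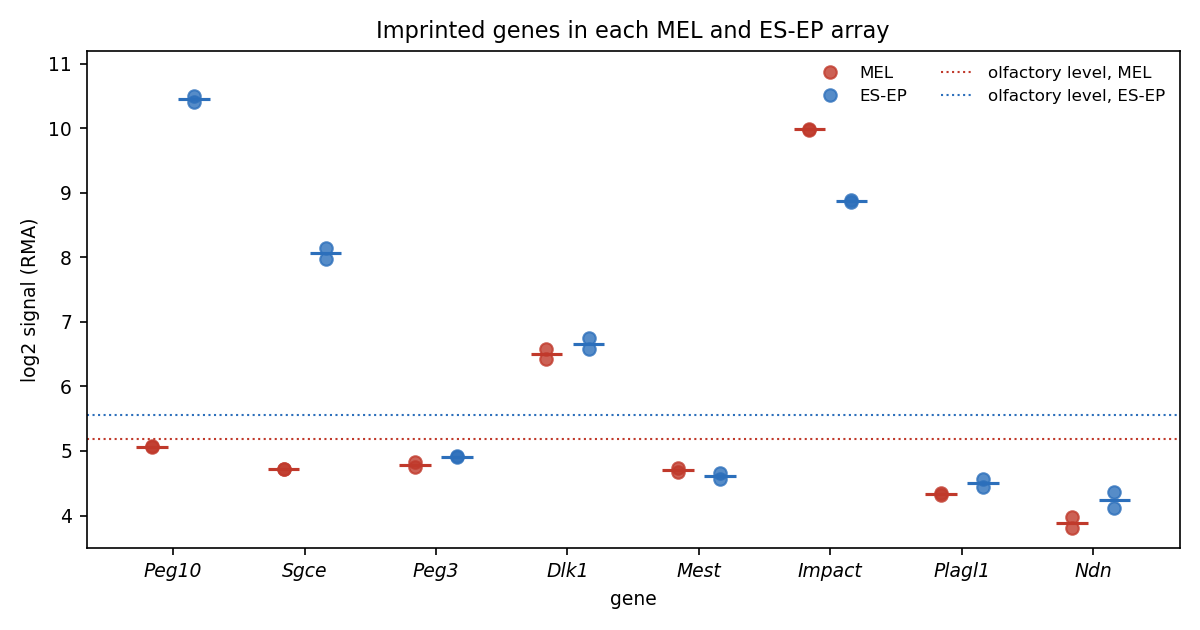
Log2 RMA signal (vertical axis) of the 8 matched imprinted genes (horizontal axis) in each MEL array (red, left) and ES-EP array (blue, right), with short bars for the means of 2 arrays and dotted lines for the olfactory level of each cell type. Peg10 and Sgce sit under the level in MEL and at 10.45 and 8.06 in ES-EP, Impact is at 9.98 in MEL and 8.87 in ES-EP, and Peg3, Mest, Plagl1 and Ndn lie under both lines.

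Of the 8 genes, 3 differed by at least 2-fold between the means (37.5%), and 2 of these were lower in MEL. Among all genes 10.0% differed by at least 2-fold in either direction, and 4.27% did so with a lower signal in MEL. The 2 groups of arrays did not overlap for 7 of the 8 genes, as was the case for 81.8% of all genes. The median difference of the 8 genes was -0.16, beside -0.15 over all genes. These counts describe genes chosen with the contrast known.

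The neighborhood of Peg10 and Sgce on chromosome 6 did not move as one block. Casd1, a sialic acid O-acetyltransferase gene that is next to Sgce among the measured genes, was called higher in MEL, opposite to its neighbors. Casd1 had log2 signals of 9.38 and 9.24 in MEL, against 8.62 and 8.64 in ES-EP. The groups did not overlap, and the difference of 0.68 (SE 0.08) had a limma adjusted p of 5.4e-05. On the Peg10 side, Ppp1r9a, a neuronal actin-binding protein on the imprinted list, was at background in all 4 arrays and differed by -0.07 (adjusted p = 0.55). Pon1, a serum paraoxonase, was also under the level, with a difference of 0.18 (adjusted p = 0.095). Bet1, a vesicle SNARE, was well above it, with log2 signals of 8.03 and 8.33 in MEL, against 8.29 and 8.20 in ES-EP, and did not pass the test (adjusted p = 0.61).

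The genes of the same cluster listed as maternally expressed had smaller differences than Peg10 and Sgce. That pair is among the genes chosen with the contrast known, so this is a description, and a link to the allele was not tested. Pon2, an intracellular paraoxonase, had log2 signals of 8.77 and 8.78 in MEL, against 9.94 and 10.02 in ES-EP. Its groups were clearly apart, and Pon2 was 2.31-fold lower in MEL (difference -1.21, SE 0.08, adjusted p = 4.1e-07). Tfpi2, a Kunitz-type protease inhibitor, had 4.66 and 4.66 in MEL, against 5.78 and 5.57 in ES-EP, so that it left background only in ES-EP, and there narrowly. It was called lower in MEL (difference -1.02, adjusted p = 5.0e-06). Col1a2, a fibrillar collagen gene off the imprinted list, and Pon3 were called lower, with differences of -0.33 (adjusted p = 0.0082) and -0.21 (adjusted p = 0.038). Neither call held after median centring, where the adjusted p was 0.11 for Col1a2 and 0.48 for Pon3, and Pon3 was also lost with the replicate letter as a block (adjusted p = 0.058) and without any 1 array. Without MEL replicate B the adjusted p of Col1a2 was 0.09, and without ES-EP replicate A it was 0.058. Calcr and Asb4, the other listed genes of the cluster, were at background in all 4 arrays, where Calcr was called lower (difference -0.22, adjusted p = 0.049) and Asb4 did not pass the test (difference -0.05, adjusted p = 0.64). The largest positive difference along the stretch belonged to Slc25a13, a gene off the imprinted list for the mitochondrial aspartate-glutamate carrier, named after its values were seen. It had log2 signals of 8.94 and 8.89 in MEL, against 4.97 and 5.06 in ES-EP, and was called higher in MEL (difference 3.90, adjusted p = 4.5e-11).

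**Figure D2:**
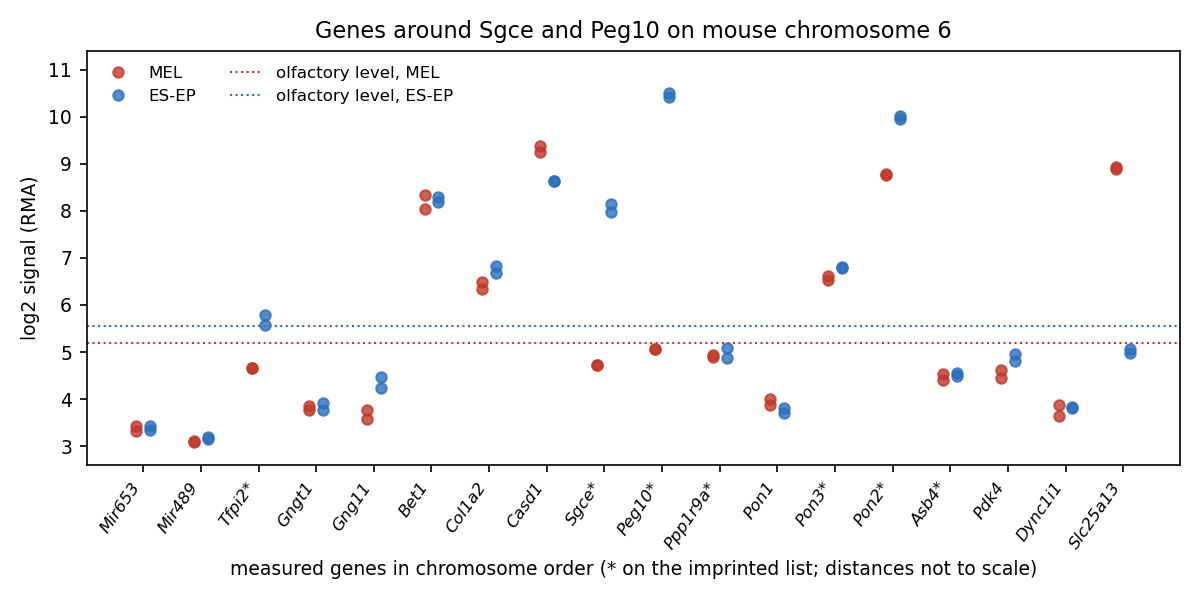
Log2 RMA signal (vertical axis) of 18 measured genes in their order along mouse chromosome 6 (horizontal axis, spacing not to scale), with MEL arrays in red at left and ES-EP arrays in blue at right, dotted lines at the olfactory levels and asterisks on imprinted genes. Sgce and Peg10 are high only in ES-EP, Casd1 beside them is higher in MEL at 9.31 against 8.63, and Slc25a13 at the far end is high only in MEL.

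A wider list of 56 other mouse imprinted genes, of which 44 were measured, leaned the same way as Peg10 and Sgce. Of the 44, 29 were called lower in MEL, 3 were called higher and 12 did not pass the test at an adjusted p of 0.05. Among all genes 63.8% were called, 43.2% lower and 20.5% higher, so that 65.9% of the imprinted list called lower stands beside 43.2%. The median difference over the 44 genes was -0.33, beside -0.15 over all genes. Much of this was small in size, and part of it was at background. At least 2-fold differences numbered 6, all lower in MEL (13.6% of the list in either direction). The share of all genes was 10.0% in either direction and 4.27% lower in MEL. Of the 44, 16 lay under the olfactory level in both cell types, beside 6821 of all 19938 genes. Over all genes the split of calls moved to 28.5% higher and 27.4% lower after cyclic loess. On that scale 18 of the 44 were called lower and 3 higher, and the median of the list was -0.13.

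Grb10 carried the largest of these differences. It encodes an adaptor that binds activated insulin and IGF-1 receptors and restrains growth, and in most mouse tissues it is expressed from the maternal copy. Grb10 had log2 signals of 4.53 and 4.54 in MEL, against 10.83 and 10.89 in ES-EP. The MEL arrays lay under the olfactory level and the ES-EP arrays far above it. The signal was 80.3-fold lower in MEL (difference -6.33, SE 0.08, adjusted p = 1.02e-11), a size that rests on background in MEL, and Grb10 was at rank 2 of 19938 genes from the most negative difference.

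Mcts2, a paternally expressed retrocopy of the translation factor gene Mcts1, had log2 signals of 7.00 and 6.88 in MEL, against 9.82 and 9.91 in ES-EP. Both groups were above the olfactory level and apart, and Mcts2 was 7.60-fold lower in MEL (difference -2.93, SE 0.08, adjusted p = 4.9e-10). Its parent gene Mcts1 had 7.70 and 7.96 in MEL, against 8.51 and 8.40 in ES-EP, a difference of -0.63 (adjusted p = 0.00033). The copies are closely similar in their coding sequence, so labeled RNA from either may have bound probes of the other, and the Mcts2 value is uncertain to that extent.

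In the Igf2r cluster, Airn, the paternally expressed antisense RNA that silences Igf2r on the same chromosome, was at 4.47 and 4.27 in MEL, against 5.92 and 6.37 in ES-EP. It was above the olfactory level only in ES-EP and was called lower in MEL (difference -1.78, SE 0.13, adjusted p = 1.2e-06). Igf2r, the maternally expressed receptor that clears IGF2, was at 8.70 and 8.63 in MEL, against 8.91 and 9.19 in ES-EP, and was also called lower (difference -0.39, adjusted p = 0.0062). So both transcripts of this overlapping pair had the lower signal in MEL. Igf2 itself, the paternally expressed growth factor next to H19, was at 5.10 and 4.74 in MEL, against 5.57 and 5.64 in ES-EP (difference -0.68, adjusted p = 0.00039). The ES-EP mean of Igf2 exceeded the olfactory level only by a small margin.

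The Kcnq1 cluster on chromosome 7 was the only one with calls in both directions. Cd81, a tetraspanin of the cell surface, had log2 signals of 10.47 and 10.35 in MEL, against 11.62 and 11.78 in ES-EP, and was called lower (difference -1.29, adjusted p = 6.1e-07). Cdkn1c, the cyclin-dependent kinase inhibitor p57, had 7.37 and 7.31 in MEL, against 8.08 and 8.21 in ES-EP, and was called lower as well (difference -0.81, adjusted p = 1.5e-05). Phlda2, a pleckstrin homology protein that limits growth of the placenta, had 10.23 and 10.19 in MEL, against 9.77 and 9.81 in ES-EP. It was called higher in MEL (difference 0.42, SE 0.08, adjusted p = 0.00094). Osbpl5 and Slc22a18, a lipid transfer protein and a membrane transporter, were called higher, with differences of 0.33 (adjusted p = 0.0064) and 0.28 (adjusted p = 0.030). Without MEL replicate A neither passed (adjusted p = 0.058 and 0.26), which left 1 of the 3 higher calls, and Slc22a18 was also lost without ES-EP replicate A (adjusted p = 0.18). Of the 10 measured genes of this cluster 4 were called lower, 3 higher and 3 in neither direction. Tspan32 and Nap1l4 were among the last, at differences of -0.08 and -0.14 although well above background.

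**Figure D3:**
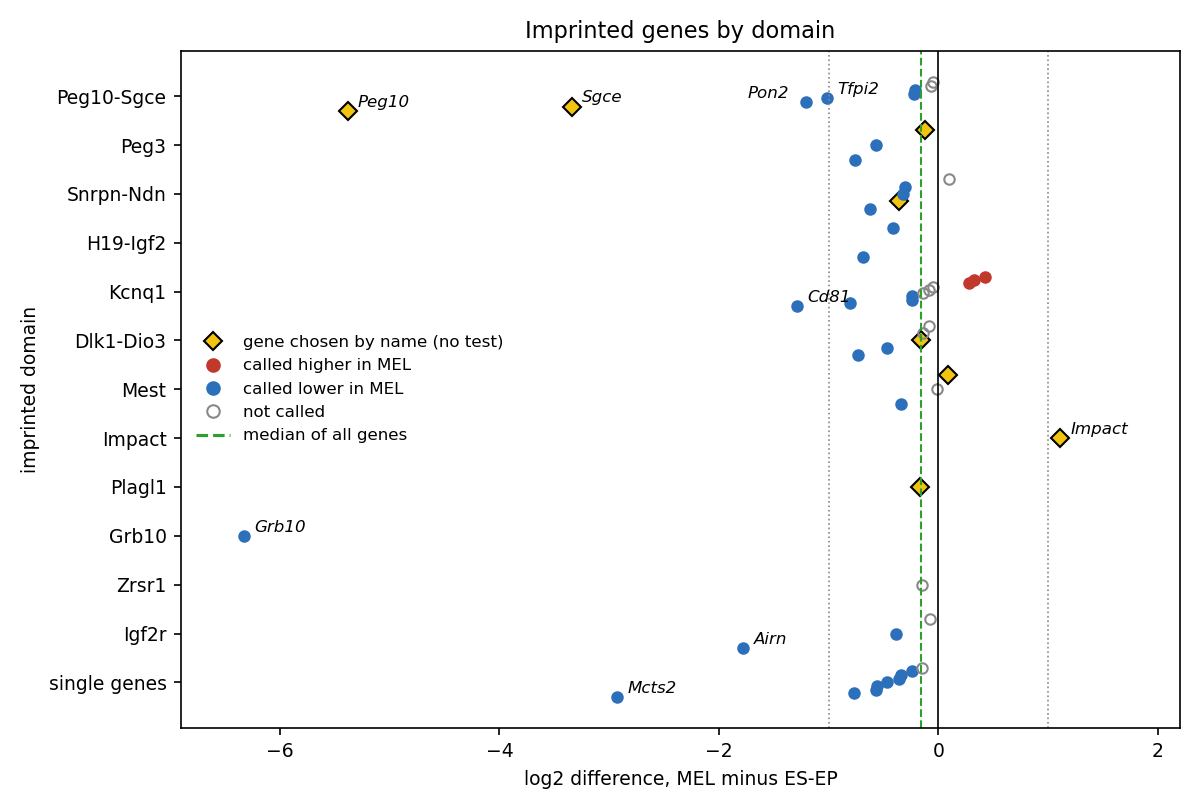
Log2 difference, MEL minus ES-EP (horizontal axis), of each measured imprinted gene by domain (vertical axis), with diamonds for the genes chosen by name, filled circles for genes called higher (red) or lower (blue) in MEL, open circles for genes not called, dotted lines at 2-fold and a dashed line at the median of all genes, -0.15. Grb10 at -6.33, Peg10 at -5.38, Sgce at -3.34 and Mcts2 at -2.93 stand apart from a mass of small negative differences, and Impact at 1.11 is the only point beyond 2-fold on the right.

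In the wider list, 14 of 17 measured genes listed as paternal and 15 of 27 listed as maternal were called lower in MEL. The listed allele is the one usually expressed in mouse tissues. Whether each gene was imprinted in these cells was not measured. The share of all genes called lower was 43.2%. Median differences were -0.46 for the paternal and -0.22 for the maternal genes. The difference between the paternal and maternal shares was not tested. Of 1027 olfactory receptor genes, taken as silent, 461 were called lower in MEL and 41 higher. The part of background in the paternal and maternal shares was not tested. Of the 17 paternal genes, 9 lay under the olfactory level in both cell types, against 7 of the 27 maternal genes. Paternal genes under the level included Zdbf2 at -0.76, Slc38a4 at -0.56 and Usp29, which shares its promoter region with Peg3, at -0.56.

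Around the 10 genes as a whole, the 3 nearest measured genes on each side gave 50 neighbors, of which 8 were called higher in MEL and 22 lower (60.0% called, near the 63.8% of all genes). Those beside Impact went in both directions. Ttc39c, a tetratricopeptide repeat gene, had log2 signals of 6.18 and 6.09 in MEL, against 4.53 and 4.49 in ES-EP (difference 1.62, adjusted p = 4.1e-08), while Osbpl1a, a sterol-binding protein gene, had 6.78 and 6.62 in MEL, against 8.63 and 8.91 in ES-EP (difference -2.07, adjusted p = 4.9e-08). Beside Plagl1, Ltv1, a factor for assembly of the small ribosomal subunit, was called lower in MEL (difference -1.27, adjusted p = 3.3e-07). These 3 were named after their values were seen, as the neighbors with differences beyond 2-fold. Copg2, the antisense neighbor of Mest and a coat protein gene of Golgi vesicles, was equal within error, at 9.54 and 9.50 in MEL, against 9.56 and 9.51 in ES-EP (difference -0.01, SE 0.08).

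Mest also carries a microRNA in an intron, miR-335, whose host gene was at background. The mature strand is given from RefSeq (GRCm38.p6, chr6:30741314-30741336, plus strand) with its seed, bases 2 to 8, in capitals.
mmu-miR-335-5p: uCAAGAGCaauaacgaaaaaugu
The probe set named for Mir335 was at 4.71 and 4.80 in MEL, against 4.47 and 4.70 in ES-EP, and did not pass the test (difference 0.17, adjusted p = 0.14). As for Mest itself, all 4 values lay under the olfactory level.

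A list of imprint maintenance factors held 23 genes, for factors that set or keep imprints and also for the Tet enzymes, which oxidize methylated cytosine. Of these 23, 19 lay above the olfactory level in MEL and 18 in ES-EP. Called higher in MEL were 10 of them, 3 were called lower and 10 in neither direction, so that 56.5% were called beside 63.8% of all genes, of which 20.5% were higher and 43.2% lower. Dnmt3a, a de novo DNA methyltransferase, had log2 signals of 8.60 and 8.58 in MEL, against 7.36 and 7.40 in ES-EP (difference 1.21, adjusted p = 3.6e-07). Its paralog Dnmt3b had 7.17 and 7.26 in MEL, against 6.00 and 6.16 in ES-EP (difference 1.13, adjusted p = 1.6e-06). Tet2, which oxidizes methylated cytosine, was higher in MEL by a similar amount (difference 1.13, adjusted p = 4.3e-06). Dnmt1, the maintenance methyltransferase, and Uhrf1, which recruits it to hemimethylated DNA, were called in opposite directions, at 0.26 (adjusted p = 0.024) and -0.44 (adjusted p = 0.0014). Zfp57, whose hexamer is marked in the promoters above, was at 5.95 and 6.20 in MEL, against 5.41 and 5.32 in ES-EP (difference 0.71, adjusted p = 0.00013), so that it passed the olfactory level only in MEL. Dnmt1, Uhrf1 and Zfp57 were named after their values were seen.

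Genes that work with the protein products of the 10 genes showed mixed directions. Among 12 measured genes of the sarcoglycan and dystroglycan complex, to which Sgce belongs, 3 were called higher in MEL and 2 lower (41.7% called, beside 63.8% of all genes). Sgcb, β-sarcoglycan, had log2 signals of 7.61 and 7.53 in MEL, against 5.54 and 5.83 in ES-EP, opposite to Sgce (difference 1.89, adjusted p = 7.7e-08). Dtnb, β-dystrobrevin, was called lower (difference -0.54, adjusted p = 0.00023), and Dag1, dystroglycan, was called higher (difference 0.42, adjusted p = 0.014). The Dag1 call did not survive leaving out either MEL array (adjusted p = 0.11 without A and 0.086 without B) or array A of ES-EP (adjusted p = 0.10), and the list fell to 3 calls without MEL replicate B.

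Among 9 other genes derived from retrotransposon gag sequences, relatives of Peg10, 1 was called higher and 3 lower (44.4% called, beside 63.8% of all genes). The largest difference was in Rtl6, which was called lower in MEL (difference -1.37, adjusted p = 1.6e-06). Its mean was under the olfactory level in both cell types. Rtl5 had log2 signals of 5.82 and 6.04 in MEL, against 4.77 and 4.94 in ES-EP (difference 1.08, adjusted p = 5.9e-06), and Arc, the synaptic capsid-forming protein, had 5.63 and 5.51 in MEL, against 6.02 and 6.09 in ES-EP (difference -0.49, adjusted p = 0.00054). Rtl1, the imprinted relative in the Dlk1 cluster, did not pass the test (difference -0.09, adjusted p = 0.43). Of 8 genes made up of MAGE family relatives of Ndn and its neighbor Mkrn3, 2 were called higher and 5 lower, beside 20.5% higher and 43.2% lower over all genes. Maged1, which binds neurotrophin receptor, had 8.63 and 8.68 in MEL, against 7.52 and 7.57 in ES-EP (difference 1.11, adjusted p = 8.1e-07). Magel2 and Nsmce3 were called lower, with differences of -0.31 (adjusted p = 0.025) and -0.26 (adjusted p = 0.016). Under median centring the adjusted p was 0.21 for Magel2 and 0.24 for Nsmce3, and the family had 4 calls. The count for the family was 3 without MEL replicate B and 3 without ES-EP replicate B. Magel2 was lost in both cases (adjusted p = 0.23 and 0.17), and Nsmce3 was lost without MEL replicate A (adjusted p = 0.11).

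Around Plagl1, whose targets include Igf2, all 7 measured genes of the PLAG and IGF2 list were called, 2 higher in MEL and 5 lower, beside 63.8% of all genes called and 43.2% called lower. Leaving out MEL replicate B gave 5 calls. The 2 large differences were in Igf2bp3 and Igf2bp1, fetal RNA-binding proteins that act on Igf2 mRNA. Igf2bp3 had log2 signals of 4.84 and 4.66 in MEL, against 8.52 and 8.56 in ES-EP (difference -3.79, adjusted p = 1.0e-10). Igf2bp1 had 4.85 and 4.96 in MEL, against 8.05 and 8.13 in ES-EP (difference -3.18, adjusted p = 2.3e-10). In MEL both lay under the olfactory level. When the mean of all its probe sets was used, the difference of Igf2bp1 was -2.07.

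In the GCN2 pathway, on which Impact acts, 6 of 8 measured genes were called lower in MEL and 1 higher, with none beyond 2-fold, beside 43.2% lower and 20.5% higher over all genes. The higher call was Eif2ak4, the gene for GCN2 itself (difference 0.28, adjusted p = 0.020). Gcn1 did not pass the test (difference 0.05, adjusted p = 0.63). Activity of GCN2 was not measured. Ddit3, a stress-induced transcription factor, Trib3, a pseudokinase, and Chac1, which degrades glutathione, had differences of -0.63 (adjusted p = 0.00015), -0.44 (adjusted p = 0.00084) and -0.37 (adjusted p = 0.0043). The number of calls in this list was 2 without MEL replicate B, where Chac1 was lost (adjusted p = 0.060), and 4 without any other 1 array or after median centring. Of 6 measured Sm core proteins, which assemble with SmN in spliceosomal particles, 2 were called higher and 3 lower, beside the same shares of all genes. Snrpg had log2 signals of 10.55 and 10.57 in MEL, against 9.49 and 9.31 in ES-EP (difference 1.16, adjusted p = 1.2e-06). Snrpb and Snrpe were called lower, with differences of -0.32 (adjusted p = 0.0049) and -0.30 (adjusted p = 0.014), and after median centring neither passed (adjusted p = 0.073 and 0.19). The list had 3 calls without MEL replicate A, without MEL replicate B and without ES-EP replicate A, and Snrpe was lost without MEL replicate A (adjusted p = 0.12) and without ES-EP replicate A (adjusted p = 0.088).

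The genes whose profiles came closest to Peg10, by Euclidean distance over the 4 arrays after each gene was centred on its own mean, were Slc4a1 (distance 0.14), the anion exchanger band 3 of red cells, Il1rl2 (0.16), an interleukin receptor subunit, and Rps6ka6 (0.16), a ribosomal S6 kinase. Slc4a1 had log2 signals of 5.93 and 5.82 in MEL, against 11.25 and 11.44 in ES-EP. For Sgce they were Disc1 (0.04), a scaffold protein, Psd3 (0.08), an exchange factor for ARF6, and Nudt11 (0.09), a diphosphoinositol polyphosphate phosphatase. With 2 levels over 4 arrays, likeness here reflects mainly a difference of similar size.

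**Figure D4:**
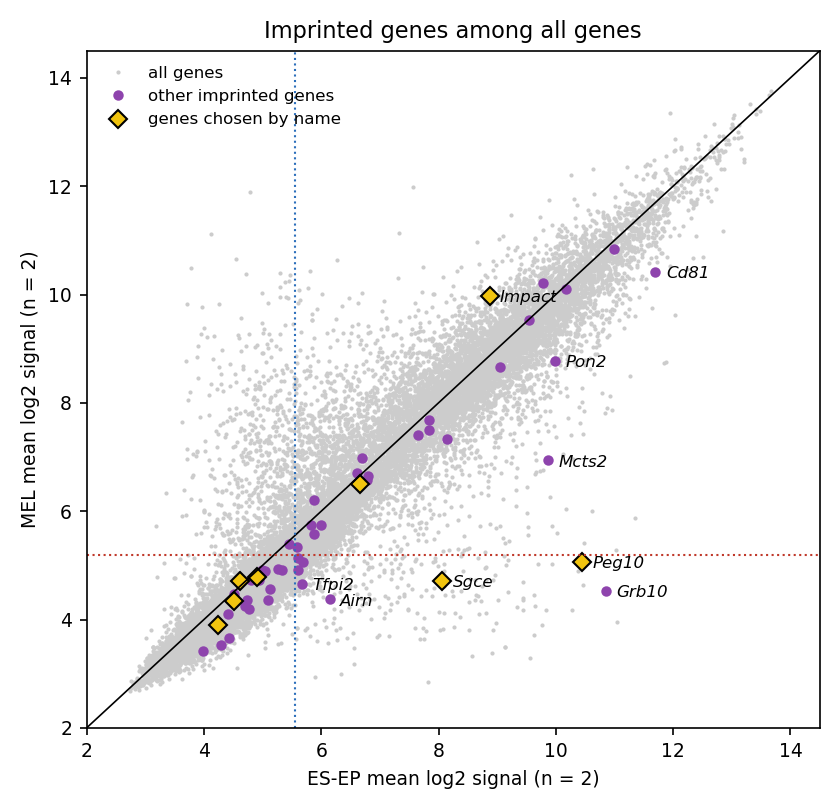
Mean log2 RMA signal in MEL (vertical axis) against that in ES-EP (horizontal axis) for 19938 genes (gray), with the other imprinted genes as purple circles, the genes chosen by name as yellow diamonds, equality as a solid line and the olfactory levels as dotted lines. Peg10, Sgce and Grb10 lie at the lower right, under 5.19 in MEL and between 8.06 and 10.86 in ES-EP.

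Markers of other cells were read beside these differences. Among 7 mast cell markers, 2 lay above the olfactory level in MEL and 3 in ES-EP, and their mean log2 signal was 4.63 to 4.68 in MEL and 6.29 to 6.34 in ES-EP. Ms4a2, a subunit of the high-affinity IgE receptor, differed by -7.10 and Hdc, histidine decarboxylase, by -1.97, whereas Fcer1a and Cpa3 were under the level in both. Megakaryocyte markers went the other way, with a mean of 7.34 to 7.48 in MEL and 5.24 to 5.27 in ES-EP over 4 measured genes. Markers of mesenchyme, a tissue where several imprinted genes are known to be active, were above the level for 5 of 8 in MEL and 4 of 8 in ES-EP, with means of 5.53 to 5.58 in MEL and 5.64 to 5.68 in ES-EP. Of 7 visceral endoderm and hepatoblast markers 4 were above it in MEL and 4 in ES-EP, and of 3 trophoblast markers 1 in MEL and 1 in ES-EP. Macrophage markers were above it for 1 of 7 in MEL and 2 of 7 in ES-EP. The part of other cell types in the differences of Peg10, Sgce, Grb10 and Impact was not tested. The late erythroid genes Slc4a1 and Alas2, which mark maturation, were also lower in MEL (differences -5.47 and -3.12). They had the largest drops among the 8 measured erythroid markers. Of these 8, 6 were called lower and 1 higher, beside 43.2% and 20.5% of all genes. The higher call was Gata1 (difference 1.14, adjusted p = 9.9e-07), and Epor did not pass the test (difference -0.04, adjusted p = 0.69).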

How the data were processed

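RNA of 2 MEL and 2 ES-EP cultures was hybridized to mouse Gene 1.0 ST arrays. The authors deposited log2 signals per probe set, made by RMA in GeneSpring GX, and the submitters' processing notes name build mm9. RMA scales the arrays against each other, so a shift of total RNA per cell cannot be seen. The medians of the deposited arrays still differed, at 5.68 and 5.67 in MEL against 5.81 and 5.84 in ES-EP. Counts without rescaling carry that offset. Of 35557 probe sets, 21789 had a single gene symbol in the probe-to-gene table, 1621 had several and 12147 were unnamed here. Each of 19938 genes was read from its brightest probe set by the 4-array mean, with symbols updated through Entrez identifiers (21698 probe sets matched). MEL was compared with ES-EP by lmFit and eBayes in limma 3.58.1 (R 4.3.3), two-sided, with Benjamini-Hochberg adjustment over all genes at 0.05, without a block, and the code was tested on simulated data. The genes, lists and tests were chosen with earlier results of these data known. Named were the 10 genes, up to 8 other imprinted genes called in each direction and up to 3 per partner list, each by largest difference with the higher mean above the olfactory level, the called neighbors of Peg10 and Sgce, and the 3 genes most like each. Any other gene named with a value, such as parent genes, listed genes that were not called and cell markers, falls outside this rule and was chosen after its values were seen. Alternatives were 3 rescalings over all probe sets, averaging all probe sets of a gene, a replicate block, leaving out each array, a filter at the median mean signal, and eBayes with trend and robust settings. The promoter table holds 27025 genes. Signal depth cannot be given for arrays, and their number limits the precision.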

Additional observations from a re-analysis of the deposited data

How the results depend on the processing

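Peg10, Sgce and Impact kept a difference of at least 2-fold under all 3 rescalings, after averaging all probe sets of a gene, with the replicate block and without each array (3 of 8 genes each time). Of 33 genes that the naming rule above picked and that had a test, 23 kept their call under all alternatives run. The other 10 lost it under at least 1, and none changed direction. Genes named outside that rule, such as Calcr, Igf2r and Dnmt1, are not part of this count. The 29 lower calls among the other imprinted genes became 18 after median centring, 18 after cyclic loess and 9 of 17 genes at or above the median mean signal. That filter left 7117 calls of 9969 genes over all genes, 13 of 20 neighbors and 2 of 2 MAGE genes, and no retrotransposon gag gene. Fewer genes were tested under it. With median centring there were 4 calls in the MAGE family, 3 among the Sm proteins and 4 in the GCN2 pathway. With cyclic loess the MAGE family had 4 calls, and with quantile normalization the Sm proteins had 3. The cause of these changes was not tested.

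Leaving out 1 array at a time gave 9889 to 11427 calls over all genes, 1 to 3 higher and 22 to 24 lower calls among the other imprinted genes, 20 to 28 among the neighbors, 10 to 13 imprint maintenance factors, 3 to 5 genes of the sarcoglycan complex, 3 to 4 gag genes, 3 to 5 MAGE genes, 3 to 4 Sm proteins, 5 to 7 genes of the PLAG and IGF2 list and 2 to 4 of the GCN2 pathway. In these fits the lone array is assumed to vary like the other group.

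The letters A and B are shared by both cell types without a stated link, and deviations of same-lettered arrays from their group means had a correlation of -0.04 over genes. A fit with the letter as a replicate block called 12709 genes, 3 imprinted genes higher and 28 lower. Among the 33 genes picked by the naming rule it changed no call other than that of Pon3. Signals under the olfactory level limit what can be said of Peg3, Mest, Plagl1 and Ndn.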
